A study of Mus musculus with 4 samples.

Results

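Genes that are normally active in germ cells were examined for CpG methylation in mouse embryonic stem cells with and without Ogt. The group held 10 of the 21627 protein-coding genes of the autosomes and X, and its members were chosen by name for their roles, with no threshold on methylation: the RNA-binding or RNA-export genes Dazl, Ddx4, Nanos2, Nanos3 and Nxf2, the chromatin and transcription genes Brdt, Taf7l and Sohlh2, and Stk31 and Tex101. Tex101 encodes a surface glycoprotein of germ cells, so by its known role it belongs to neither class. For each gene, CpGs from 3000 bp before to 3000 bp after the RefSeq span were pooled in each library. The kilobase with most listed CpGs at a gene end was taken as the promoter, and the remaining gene span as the body. A level is the share of methylated reads among all reads of the pooled CpGs, and differences between levels are given in percentage points.

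All cells carried floxed Ogt (Ogt fl/fl) and were grown on feeder fibroblasts that had been treated with mitomycin C. Ogt encodes the O-GlcNAc transferase. The 2 Ogt iKO libraries came from cells given 4-hydroxytamoxifen (4-OHT) for 6 days and sorted for YFP, and the 2 control libraries from cells kept 6 days without 4-OHT. Viable stem cells of both groups were sorted away from the feeders. The drug and the YFP sort accompanied the knockout in every iKO library, so their effects cannot be told apart. The labels do not say whether replicates were separate cultures, and p-values therefore measure only the spread between these libraries, which may be technical. Bisulfite sequencing reads 5-methylcytosine and 5-hydroxymethylcytosine as 1 class, so each level is their sum.

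Many genes used only in germ cells have CpG-rich promoters that become methylated when the embryo's somatic lineages form, and in embryonic stem cells they are also held silent by a variant Polycomb complex that contains MGA, MAX and E2F6. MGA and MAX bind the E-box, and E2F6 the E2F site. Dazl and Ddx4 are textbook examples of such germline promoters.

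The stretches around the transcription start are shown for 6 members with CpG-rich starts on which the results turn, and for Nanos2 as a CpG-free contrast. Each runs 5′ to 3′ on the gene's own strand, from 250 bases before the RefSeq start to 50 bases into the transcript, as given by RefSeq on GRCm38.p6, the assembly named mm10. Capitals mark CpG dinucleotides, the only bases whose methylation was counted. The intervals are chr17:50293571-50293870 for Dazl (minus strand), chr13:112652261-112652560 for Ddx4 (minus), chrX:134964705-134965004 for Nxf2 (minus), chr5:107330944-107331243 for Brdt (plus), chr3:55181794-55182093 for Sohlh2 (plus), chr6:49395289-49395588 for Stk31 (plus) and chr7:18987274-18987573 for Nanos2 (plus).
Dazl: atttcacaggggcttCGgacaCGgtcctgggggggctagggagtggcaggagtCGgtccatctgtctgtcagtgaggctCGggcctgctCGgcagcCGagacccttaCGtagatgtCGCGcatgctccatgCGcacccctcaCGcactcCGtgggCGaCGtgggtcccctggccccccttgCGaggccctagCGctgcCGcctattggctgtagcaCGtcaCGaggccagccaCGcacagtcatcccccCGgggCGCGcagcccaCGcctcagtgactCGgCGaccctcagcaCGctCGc
Ddx4: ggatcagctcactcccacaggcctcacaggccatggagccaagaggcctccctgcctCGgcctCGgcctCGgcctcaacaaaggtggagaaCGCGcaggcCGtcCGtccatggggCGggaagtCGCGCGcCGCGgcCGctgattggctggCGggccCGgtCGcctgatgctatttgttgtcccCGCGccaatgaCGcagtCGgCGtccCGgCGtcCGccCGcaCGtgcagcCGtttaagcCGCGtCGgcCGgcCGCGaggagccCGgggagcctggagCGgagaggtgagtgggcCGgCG
Nxf2: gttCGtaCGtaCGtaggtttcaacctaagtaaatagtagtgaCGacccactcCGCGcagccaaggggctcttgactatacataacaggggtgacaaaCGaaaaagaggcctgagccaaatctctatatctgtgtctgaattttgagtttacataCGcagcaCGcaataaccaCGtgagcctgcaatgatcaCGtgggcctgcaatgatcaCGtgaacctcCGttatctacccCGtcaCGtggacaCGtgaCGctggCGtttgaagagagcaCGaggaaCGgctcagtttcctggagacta
Brdt: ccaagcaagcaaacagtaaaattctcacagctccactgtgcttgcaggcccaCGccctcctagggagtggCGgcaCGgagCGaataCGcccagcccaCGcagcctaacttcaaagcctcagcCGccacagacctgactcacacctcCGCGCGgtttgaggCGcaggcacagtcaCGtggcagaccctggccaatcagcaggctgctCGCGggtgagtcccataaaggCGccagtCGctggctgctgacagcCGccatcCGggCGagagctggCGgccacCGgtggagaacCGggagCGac
Sohlh2: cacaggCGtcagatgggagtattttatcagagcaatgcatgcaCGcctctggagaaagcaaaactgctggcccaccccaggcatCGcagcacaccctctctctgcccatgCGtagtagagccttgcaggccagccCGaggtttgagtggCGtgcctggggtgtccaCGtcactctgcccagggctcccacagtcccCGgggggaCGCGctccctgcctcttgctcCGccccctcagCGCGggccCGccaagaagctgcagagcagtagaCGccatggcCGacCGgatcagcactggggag
Stk31: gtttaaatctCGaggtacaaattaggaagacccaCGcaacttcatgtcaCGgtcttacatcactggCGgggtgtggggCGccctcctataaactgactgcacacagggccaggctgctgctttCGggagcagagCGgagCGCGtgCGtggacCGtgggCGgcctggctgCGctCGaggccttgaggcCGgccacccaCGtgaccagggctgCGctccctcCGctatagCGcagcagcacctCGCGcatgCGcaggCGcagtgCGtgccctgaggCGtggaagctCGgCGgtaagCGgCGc
Nanos2: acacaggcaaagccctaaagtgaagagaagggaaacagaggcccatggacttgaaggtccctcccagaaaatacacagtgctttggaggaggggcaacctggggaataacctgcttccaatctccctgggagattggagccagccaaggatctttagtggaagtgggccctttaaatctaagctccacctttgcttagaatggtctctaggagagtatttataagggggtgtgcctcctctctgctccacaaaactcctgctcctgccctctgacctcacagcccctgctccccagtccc

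All 10 members matched the RefSeq promoter table, and their 300-base stretches held from 0 CpGs (Nanos2) to 38 CpGs (Ddx4), against a median of 7 over 27025 mouse promoters. Dazl held 28 CpGs, Stk31 29, Brdt 23, Nxf2 20, Tex101 19, Sohlh2 and Taf7l 17 each, and Nanos3 only 3. All 194 of these CpGs were listed in the files. The E-box CACGTG, which reads the same on both strands, was found in 5 of 10 members and in 7.24% of the 27025 promoters. Ddx4 held 1, starting 29 bases before the RefSeq start, Stk31 1 at 55 bases before, Brdt 1 at 78 and Taf7l 1 at 49. Nxf2 held 5, starting 80, 61, 42, 15 and 7 bases before its start. The E2F site GCGGGA, searched on both strands, was found in Ddx4 alone, 136 bases before the start, and in 20% of all promoters. No E-box position overlapped the E2F site. The match of letters is a description and shows no binding.

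Each E-box contains a CpG, and these 9 CpGs could be read directly, though thinly. Summed over them, 2 of 18 reads were methylated in iKO 1, 0 of 16 in iKO 2, 0 of 12 in control 1 and 6 of 17 in control 2. A read is counted at each CpG it covers, so the same molecule can count several times. The E-box CpGs of Stk31, Brdt and Taf7l had no methylated read, with at most 5 reads per library at each. Control 1 had 1 read at each of them, and control 2 had 0 reads at those of Stk31 and Taf7l. Of the 8 methylated reads, 7 lay in Nxf2 (2 of 10, 0 of 7, 0 of 5 and 5 of 9 reads in the same order) and 1 in Ddx4, in control 2. At this depth no difference between groups was detectable at the E-boxes.

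The tables held 64273609 to 79929994 reads over CpGs per library, a mean depth of 3.35 to 4.04 reads per listed CpG. Of 20677079 listed CpGs, 79% had a read in all 4 libraries, and the main values rest on these. Pooled over all gene bodies, the level was 66.0% in iKO 1, 63.7% in iKO 2, 71.3% in control 1 and 74.7% in control 2. Of 6 stem cell markers, 5 (Pou5f1, Sox2, Nanog, Dppa5a and Tdgf1) had promoters at 20% or lower in the controls. The window for Zfp42 lay at the end opposite to its start and read 37.0% to 68.4% across the libraries.

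In the CpG-densest windows the members ranged from nearly unmethylated to highly methylated in the same cells. The control means there were 4.91% for Dazl, 23.7% for Ddx4, 36.9% for Brdt, 58.8% for Stk31, 60.8% for Sohlh2, 62.5% for Nanos2, 79.6% for Tex101 and 82.3% for Nxf2. The CpG-densest window of Nanos3, at 81.2%, lay at its 3′ end; around its RefSeq start the control mean was 13.2% and iKO was higher by 9.32 points. The order of the levels depended on the window for other genes too, since the start-centred control mean was 52.5% for Dazl and 33.2% for Sohlh2. In these windows the iKO mean was below the control mean at all 9 members that could be tested, as at 62.0% of all promoters and 83.3% of those at 50% or more in the controls. The 9 had a median difference of -12.7 points, which was the value of the 3′ window of Nanos3. The median was -0.69 points over the 20032 promoters tested and -9.14 points over the 5968 promoters at 50% or more in the controls. Of the 9, Dazl, Ddx4 and Brdt were below 50% in the controls. None of the 9 was called, which required an adjusted p under 0.05 in the limma-moderated quasi-binomial fit and at least 10 points; 1711 of all promoters had an unadjusted p under 0.05, and edgeR and limma on logit levels called 0 promoters. Across all promoters 0.0200% were called, all lower in iKO: Duxf3, Wdr20rt, Slc25a31 and Dnah6, named here after their values were seen. The 2 groups did not overlap at 5 of the 9 members (Stk31, Brdt, Sohlh2, Nxf2 and the 3′ window of Nanos3), where iKO was lower, against 26.3% of all promoters and 2769 of the 5968 at 50% or more in the controls. Taf7l had 2 promoter CpGs with reads in every library and was not tested.

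**Figure D1:**
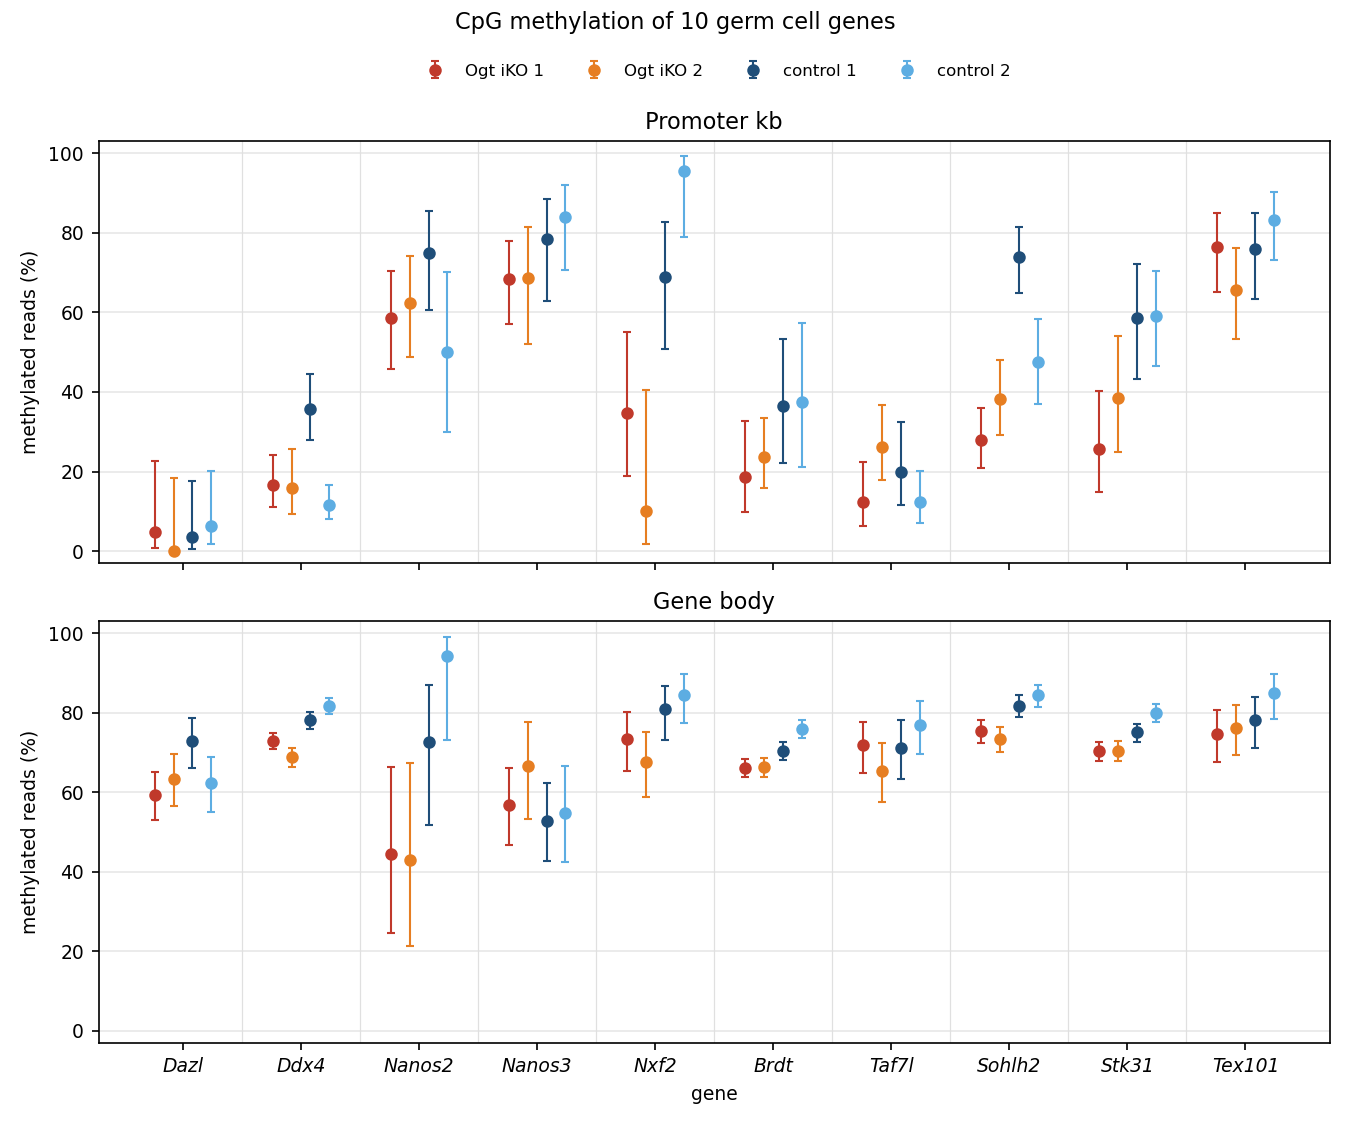
Methylated reads (%) in the promoter kilobase (top) and the gene body (bottom) of the 10 genes, with 1 point per library and bars for the 95% Wilson interval, which covers counting error only; the Taf7l promoter uses all listed CpGs, the others CpGs read in all 4 libraries. The Nanos3 window lies at its 3′ end, not at its start. The iKO points lie below both control points there and at the promoters of Nxf2, Brdt, Sohlh2 and Stk31. The bodies lie mostly between 60% and 85%.

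Dazl, which encodes an RNA-binding protein that controls translation in germ cells, was nearly unmethylated in its CpG-densest kilobase, the first of the gene (chr17:50292621-50293620). The level was 4.76% in iKO 1, 0% in iKO 2, 3.57% in control 1 and 6.25% in control 2, on 17 to 32 reads over 17 CpGs. All libraries were low and the groups overlapped. The iKO mean was 2.38% ± 3.37 (SD, n = 2) and the control mean 4.91% ± 1.89 (SD, n = 2), a difference of -2.53 points (adjusted p = 0.959). That difference was -0.15 points without iKO 2 and -4.91 without iKO 1. Over all 93 listed CpGs the levels were 0.588%, 7.14%, 2.70% and 12.2% in the same order.

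A window centred on the Dazl start gave another picture. In the kilobase from 500 bp before to 500 bp after the RefSeq start the level was 13.2% in iKO 1, 25.7% in iKO 2, 34.0% in control 1 and 71.0% in control 2, on 35 to 97 reads over 26 CpGs. Both iKO libraries were below both controls, and the 2 controls lay far apart. The difference was -33.0 points (adjusted p = 0.206 in the fit on start-centred windows, with 0.206 to 1 over this promoter's alternatives). In the bin from 500 bp to 0 bp before the gene's 5′ end the levels were 16.7%, 27.8%, 46.3% and 80% in the order iKO 1, iKO 2, control 1, control 2. In the first 500 bp of the gene they were 1.52%, 17.0%, 5.88% and 35.2%, on 17 to 66 reads, so that the libraries still differed but the groups overlapped. In the bin from 500 to 1000 bp inside the gene, which held 55 CpGs, they were 0%, 1.27%, 0% and 0%, nearly unmethylated in all 4. In the 300 bases printed above the groups overlapped too, at 3.33%, 39.1%, 29.0% and 71.4% over the 15 CpGs read in every library.

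Ddx4, the germ cell DEAD-box RNA helicase also known as Vasa, had the most CpG-rich stretch of the 10. Its promoter kilobase (chr13:112651634-112652633) read 16.7% in iKO 1, 15.8% in iKO 2, 35.7% in control 1 and 11.7% in control 2, on 76 to 214 reads over 46 CpGs. Control 1 was the only high library and the groups overlapped. The difference was -7.47 points (adjusted p = 0.870), and without control 1 it turned to 4.55 points. From 500 to 1000 bp inside the gene the levels were 7.87%, 18.2%, 51.9% and 23.7% in the same order, on 27 to 127 reads.

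Nanos2 and Nanos3 encode zinc-finger RNA-binding proteins, of which the former maintains male germ cell fate and the latter the survival of primordial germ cells. The Nanos2 promoter kilobase (chr7:18987524-18988523) read 58.6% in iKO 1, 62.3% in iKO 2, 75.0% in control 1 and 50.0% in control 2, on 20 to 58 reads over 14 CpGs. The groups overlapped, with the controls as the highest and the lowest library. The difference was -2.06 points (adjusted p = 0.88), and it turned to 10.4 points without control 1. The Nanos2 body outside this kilobase held only 5 CpGs with 14 to 22 reads, and read 44.4%, 42.9%, 72.7% and 94.1%. There the iKO libraries were lower by 39.8 points, with means of 43.7% ± 1.12 and 83.4% ± 15.1 (SD, n = 2 each), and the adjusted p was 0.146; edgeR gave 0.018, and the alternatives ran from 0.018 to 0.567.

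For Nanos3 the kilobase with most CpGs lay at the 3′ end of the gene (chr8:84173233-84174232), not at its start. There the level was 68.5% in iKO 1, 68.6% in iKO 2, 78.4% in control 1 and 84.1% in control 2, on 35 to 73 reads over 13 CpGs. Both iKO libraries were lower, by 12.7 points (adjusted p = 0.740). Around the RefSeq start the order was the opposite, at 26.2%, 18.8%, 13.8% and 12.5% on 16 to 58 reads over 12 CpGs, a difference of 9.32 points (adjusted p = 0.867 in the start-centred fit). The densest 500 bp gave 14.5 points. The bin from 1500 to 1000 bp before the 5′ end, picked after its values were seen, read 5.56%, 0%, 47.6% and 44.8% on 18 to 42 reads over 7 CpGs. Upstream of Nanos3 lie Mir181d and Mir181c, both within 3000 bp, and the difference in this bin was not tested.

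Nxf2, an X-linked gene of the nuclear RNA export factor family, had the largest decrease in mean level of all 20032 promoters tested, on few reads. Its promoter kilobase (chrX:134963755-134964754) read 34.8% in iKO 1 (8 of 23 reads), 10% in iKO 2 (1 of 10), 69.0% in control 1 (20 of 29) and 95.7% in control 2 (22 of 23), over 8 CpGs. Both iKO libraries lay below both controls, and the 95% Wilson intervals ran from 1.79% to 55.1% in iKO and from 50.8% to 99.2% in the controls. On average iKO stood at 22.4% ± 17.5 and control at 82.3% ± 18.9 (SD, n = 2 per group), -59.9 points apart (adjusted p = 0.340). Over all 45 listed CpGs the levels were 21.7%, 4.17%, 71.2% and 68.7%, a difference of -57.0 points. The lowest adjusted p over its alternatives was 0.124 and the differences ran from -73.3 to -46.6 points.

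Reads at Nxf2 were sparse and uneven. Depth per listed CpG in its body was 0.438 to 0.518 times the library mean, and at Taf7l, the other X-linked member, 0.541 to 0.609 times. In the bin from 500 to 1000 bp inside the gene iKO 2 had 1 read, and in the next bin control 2 had 0 reads. Nxf2 belongs to a gene family, and how the alignment treated reads that match several places is not given in the sources used here.

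Brdt encodes a testis bromodomain protein that binds acetylated histones and compacts chromatin in sperm precursors. Its promoter kilobase (chr5:107330616-107331615) read 18.6% in iKO 1, 23.5% in iKO 2, 36.4% in control 1 and 37.5% in control 2, on 24 to 85 reads over 18 CpGs. Both iKO libraries were below both controls. With 21.1% ± 3.48 in iKO and 36.9% ± 0.80 in control (SD, n = 2 per group), the difference of -15.9 points was not called (adjusted p = 0.733). It depended on weighting by reads: the unweighted mean of single-CpG levels differed by 5.03 points in the other direction, and the densest 500 bp by 1.30 points. In the 300 bases printed above, the levels at CpGs read in all libraries were 5.71%, 14.1%, 10.5% and 0%.

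Sohlh2 encodes a basic helix-loop-helix transcription factor of early spermatogonia and oocytes. Its promoter kilobase, the first of the gene (chr3:55182044-55183043), read 27.8% in iKO 1, 38.1% in iKO 2, 74.0% in control 1 and 47.5% in control 2, on 80 to 133 reads over 37 CpGs. Both iKO libraries were lower than both controls, and the 2 controls lay nearly as far from each other as the group means did. Group means of 33.0% ± 7.30 in iKO and 60.8% ± 18.8 in control (SD, n = 2 per group) gave a difference of -27.8 points with an adjusted p of 0.278, the lowest of the members, and an unadjusted p of 0.00118. Without control 1 the difference was -14.5 points, and without control 2 it was -41.1 points. Inside the gene, from 500 to 1000 bp, the levels were 37.2%, 43.6%, 77.4% and 60.4%, and from 1000 to 1500 bp they were 46.2%, 35.0%, 70.3% and 76.0%. From 1000 to 500 bp before the start 3 CpGs with 5 to 15 reads gave 6.67%, 40%, 60% and 66.7%. In the last 500 bp before the start the groups overlapped, at 31.0%, 0%, 13.6% and 25%, and the start-centred kilobase differed by -13.7 points.

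Taf7l, an X-linked testis relative of a TFIID subunit, had too few shared CpGs for the test. Over all 83 listed CpGs of its promoter kilobase (chrX:134475506-134476505) the level was 12.3% in iKO 1, 26.2% in iKO 2, 20% in control 1 and 12.2% in control 2, on 55 to 98 reads. The groups overlapped, and the mean difference of 3.16 points had no steady direction: it was -3.81 points without iKO 2, -0.72 without control 2 and -0.50 as an unweighted mean of CpGs. In the start-centred kilobase, over all 47 listed CpGs, the levels were 33.3%, 23.9%, 38.9% and 34.1%, a difference of -7.90 points with iKO below both controls. The bin from 500 to 1000 bp inside the gene held 51 CpGs and read 2.13%, 3.23% and 3.23% in iKO 1, control 1 and control 2, with 0 reads in iKO 2.

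Stk31, a testis gene whose protein joins a Tudor domain to a kinase-like domain, had a methylated promoter kilobase in the controls (chr6:49395006-49396005). The level was 25.6% in iKO 1, 38.5% in iKO 2, 58.5% in control 1 and 59.0% in control 2, on 39 to 61 reads over 17 CpGs. Both iKO libraries were below both controls, which lay close to each other. The iKO mean was 32.0% ± 9.11 and the control mean 58.8% ± 0.34 (SD, n = 2 per group), a change of -26.8 points (adjusted p = 0.430). Over all 54 listed CpGs the levels were lower, at 11.5%, 17.0%, 50.0% and 32.2%, with the controls further apart and the difference at -26.9 points. The 500 bp before the gene's 5′ end read 22.4%, 29.4%, 56.4% and 72.5%, and the stretch from 500 to 1000 bp inside it 10.8%, 25%, 61.2% and 52.0%. The 500 bp between them, with 34 CpGs, read 3.12%, 5.45%, 38.1% and 2.86%, where control 1, on 21 reads, was the only library above 10%. In the densest 500 bp, over the CpGs that all libraries read, the difference was -1.79 points.

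Tex101 was methylated in all libraries. Its promoter kilobase (chr7:24671551-24672550) read 76.5% in iKO 1, 65.6% in iKO 2, 75.9% in control 1 and 83.3% in control 2, on 58 to 72 reads over 22 CpGs. The groups overlapped, and the difference was -8.55 points (adjusted p = 0.806). It was -3.13 points without iKO 2, -4.81 without control 2 and -14.0 without iKO 1.

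**Figure D2:**
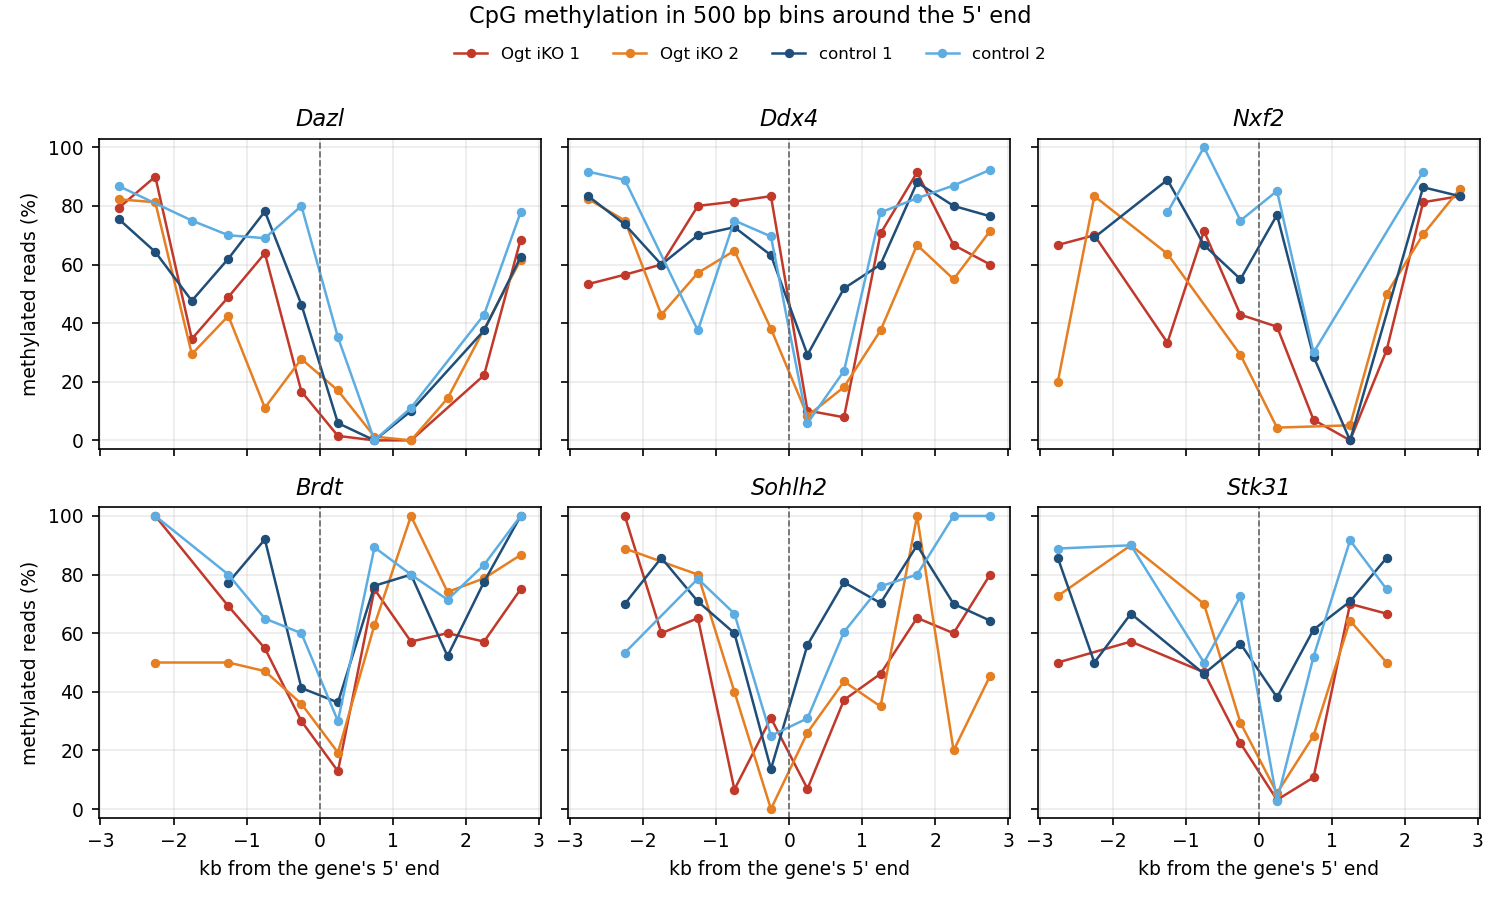
Methylated reads (%) in 500 bp bins against the distance of the bin centre from the gene's 5′ end (kb, dashed line at 0) for Dazl, Ddx4, Nxf2, Brdt, Sohlh2 and Stk31, with 1 line per library and a point where a library had at least 5 reads. Dazl falls to 0% to 1.27% in all libraries from 500 to 1000 bp inside the gene, and Nxf2 from 0 to 500 bp reads 38.8% and 4.35% in iKO against 76.9% and 85.1% in control.

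**Figure D3:**
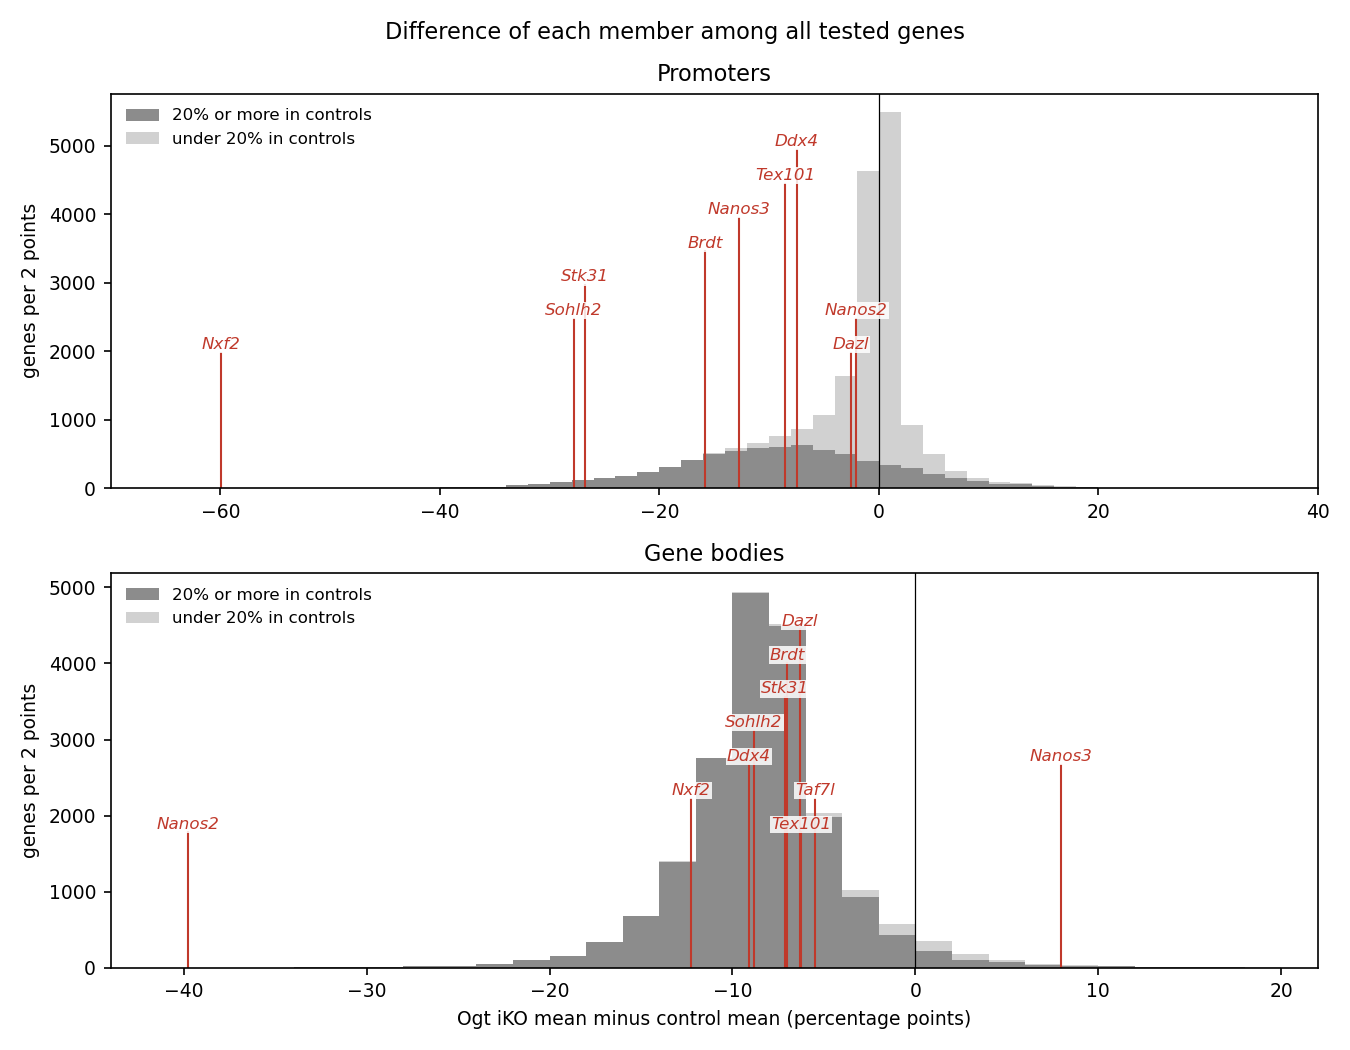
Number of genes per difference in level (iKO mean minus control mean, percentage points) over 20032 promoters (top) and 19479 gene bodies (bottom, 7 genes outside the axis), shaded by whether the control mean was 20% or more, with the members as red lines whose height has no meaning. Nxf2, Sohlh2 and Stk31 lie at -59.9, -27.8 and -26.8 points among promoters, and among bodies only Nanos3, at 7.95 points, lies above 0.

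Placed among all promoters, 1.39% had a larger decrease than Sohlh2, 1.71% than Stk31, 8.62% than Brdt, 12.8% than Nanos3, 19.9% than Tex101, 22.1% than Ddx4, 36.3% than Dazl and 38.6% than Nanos2. Most promoters were low in the controls and could not fall far. Among the 7321 promoters at 20% or more in the controls the shares were 3.80% for Sohlh2, 4.69% for Stk31, 23.5% for Brdt, 34.5% for Nanos3, 51.2% for Tex101, 55.9% for Ddx4 and 76.6% for Nanos2. These ranks describe single genes and carry no test.

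In the gene bodies the members were methylated in both groups, and 9 of 10 had a lower iKO mean, like most genes. The median difference was -7.06 points over the 10 members and -8.28 points over the 19479 bodies tested. No member was called, against 16.1% of all bodies, all lower in iKO; edgeR called 2 members, Nanos2 and Nxf2, against 23.9% of all bodies called lower by it, and limma on logit levels called 0. An adjusted p under 0.05 without the 10-point minimum was reached by 4 members, against 42.5% of all bodies. The groups did not overlap, with iKO lower, at 7 of 10 members, against 82.2% of all bodies. The members' bodies thus stood near or below the background of all genes in each count.

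The 4 bodies with an adjusted p under 0.05 in the limma-moderated fit were the longer ones. The Ddx4 body read 73.0% in iKO 1, 68.7% in iKO 2, 78.1% in control 1 and 81.8% in control 2, on 1360 to 1795 reads over 337 CpGs. It fell by 9.10 points (adjusted p = 0.018), with means of 70.8% ± 3.01 and 80% ± 2.56 (SD, n = 2 each). The Sohlh2 body read 75.3%, 73.3%, 81.8% and 84.5% in the same order and fell by 8.82 points (adjusted p = 0.032). The Stk31 body fell by 7.12 points, from 75.0% and 79.9% in the controls to 70.3% and 70.4% (adjusted p = 0.044). The Brdt body fell by 7.0 points, from 70.5% and 75.9% to 66.1% and 66.3% (adjusted p = 0.045). In each of these 4 genes both iKO libraries were below both controls.

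None of the 4 kept an adjusted p under 0.05 without iKO replicate 2 or without control replicate 2. Without control replicate 2 the Brdt difference shrank to -4.26 points (adjusted p = 0.228) and that of Stk31 to -4.70 points (adjusted p = 0.190). Without iKO replicate 1 the Ddx4 body was called at -11.2 points, the only member called then, against 17.2% of all bodies. Without control replicate 1 the bodies of Ddx4 and Sohlh2 were called, at -10.9 and -10.2 points, against 34.1% of all bodies in that fit. When each library was offset by its own level over all gene bodies, no member had an adjusted p under 0.05. Those levels were lower in iKO, so this fit asked whether a body departed from the shift over all gene bodies. It did not ask whether iKO was lower. The adjusted p of these 4 rose to 0.753 or more. In that fit 11 of all 19479 bodies were called, against 3127 in the main fit.

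The other bodies rested on fewer reads. Nxf2 read 73.3% in iKO 1, 67.5% in iKO 2, 80.8% in control 1 and 84.5% in control 2 on 125 to 135 reads, a difference of -12.2 points (adjusted p = 0.150). Tex101 differed by -6.24 points (adjusted p = 0.379), with iKO below both controls. The Tex101 difference was -2.86 points without control 2 and -9.62 without control 1. It turned to 1.12 points with at least 3 reads per CpG in every library. Dazl differed by -6.30 points (adjusted p = 0.408) and Taf7l by -5.47 points (adjusted p = 0.503), and in both the groups overlapped. Single libraries moved both: Dazl to -1.0 points without control 1 and -11.6 without control 2, and Taf7l to -2.28 without iKO 2 and -2.67 without control 2. Over all listed CpGs the Taf7l body turned to 0.21 points. Nanos3 was the 1 body with higher values in iKO, at 56.7%, 66.7%, 52.6% and 54.8% on 54 to 97 reads. Since its promoter window lay at the 3′ end, this body includes the RefSeq start, where iKO was higher by 9.32 points. The body difference of 7.95 points had an adjusted p of 0.574. It was 2.97 points without iKO 2 and 12.9 without iKO 1, and it turned to -6.31 points when CpGs needed at least 3 reads in every library.

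The 3000 bp on either side of each gene, without the promoter kilobase, were described but not tested. Over CpGs read in all libraries, differences between the group means in the flanks ran from -22.1 points at Nanos3 to -2.91 points at Stk31. The flanks of other genes were not analysed here, and of all gene bodies 96.0% had a lower iKO mean. At Brdt the flanks read 64.2% in iKO 1, 66.4% in iKO 2, 84.0% in control 1 and 81.8% in control 2, on 66 to 109 reads. At Nanos3 they read 36.7%, 28.3%, 51.9% and 57.4% in the same order, on 159 to 189 reads. The neighbouring gene 4930432K21Rik reaches into the 3′ flank of Nanos3. At both Brdt and Nanos3 the iKO libraries were the lower ones. At Dazl the flanks read 51.4%, 54.7%, 59.9% and 78.6%, with control 2 far above the rest. They include the 500 bp before the 5′ end, which the start-centred kilobase described above also covers. At Nanos2, where the neighbouring gene Mypop reaches into the flank, they read 30.2%, 28.5%, 26.1% and 40.1%, and the groups overlapped; over all listed CpGs the Nanos2 flanks were higher in iKO by 0.79 points.

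The promoter level was also set against the body of the same gene in each library. A shift by the same number of points in both then cancels, but a proportional one does not. From control to iKO this contrast shifted by -47.7 points at Nxf2, -20.7 at Nanos3 (whose window lies at its 3′ end), -19.6 at Stk31, -19.0 at Sohlh2 and -8.86 at Brdt. At Nanos3 the contrast sets the 3′ end against a body that includes the RefSeq start. At Stk31 it was -44.8 points in iKO 1, -31.9 in iKO 2, -16.5 in control 1 and -20.9 in control 2. At Nxf2 the values were -38.5, -57.5, -11.8 and 11.2 points in the same order. The groups did not overlap at Nxf2, Nanos3, Stk31 and Brdt, against 7.46% of the 18637 genes with both regions tested and 20.4% of the 6042 whose promoter was at 20% or more in the controls. They overlapped at Sohlh2, where the control 2 value of -37.0 points lay between the iKO values of -47.5 and -35.2 points.

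At Nanos2 the contrast was higher in iKO by 37.7 points, where its body of 5 CpGs differed by more than its promoter. The groups did not overlap, as at 55.8% of the 18637 genes in that direction. Only 6042 of those had promoters at 20% or more in the controls, as Nanos2 did, and the share among them was not computed. At Dazl, Ddx4 and Tex101 the groups overlapped, with shifts of 3.77, 1.63 and -2.31 points. Over all listed CpGs these shifts were 2.57, -1.69 and -5.775 points. The smallest p that 6 arrangements of the libraries allow in a two-sided exact permutation test is 0.33, and this was the value at Nxf2, Nanos3, Stk31, Brdt and Nanos2. The exact permutation p was 0.667 at Sohlh2. No arrangement of 2 against 2 libraries can reach 0.05 in this permutation test.

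**Figure D4:**
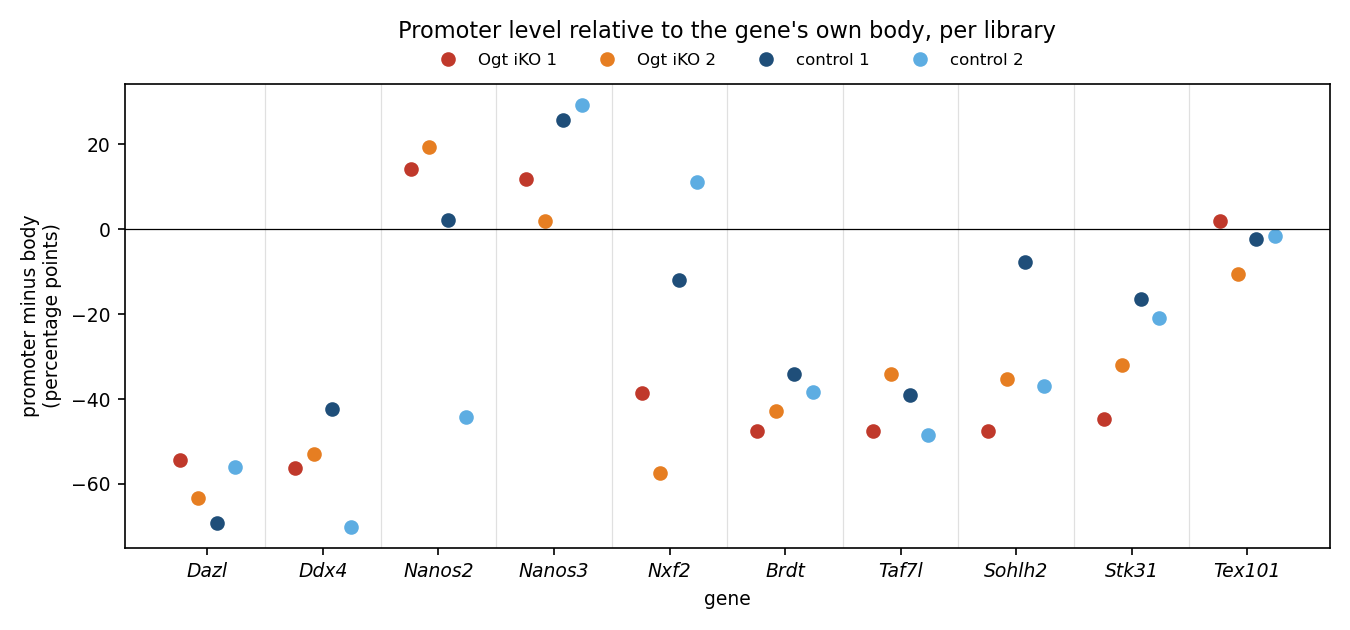
Promoter level minus body level of the same gene (percentage points), with 1 point per library. The iKO points lie below both control points at Nanos3 (3′ window), Nxf2, Brdt and Stk31, and above both at Nanos2. At the other genes the ranges of the 2 groups overlap.

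Other genes of the same biology were described with lists chosen with earlier results of these data known. Of 20 further germ cell regulators, 0 promoters were called, 12 had a lower iKO mean and the median difference was -0.54 points; 15 of the 20 were at 20% or lower in the controls, where little could be lost. For Prdm1 and Cpeb1 the window lay at the end opposite to the RefSeq start. Of the 20 bodies 18 were lower, with a median of -7.45 points, and 1 was called: Morc1, a germline chromatin ATPase, at -10.3 points. Of 12 broadly expressed relatives of the members, 10 promoters were at 20% or lower in the controls and 0 were called. Of their bodies 4 were called lower, among them those of Pum2 (-11.5 points), which encodes an RNA-binding repressor of translation, and Brd3 (-13.2), which encodes a bromodomain protein. The median body difference of this list was -10.3 points.

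Of 10 genes that encode repressors of germline genes, 0 promoters were called and 8 were at 20% or lower in the controls. The windows of Dnmt1 and Dnmt3a, which were above that level, lay at the end opposite to the RefSeq start. The Dnmt1 and Dnmt3a bodies therefore include their starts. The bodies of the 10 genes had a median difference of -9.95 points and 5 were called lower. These were Dnmt1, the maintenance methyltransferase (-13.3 points), Uhrf1, its cofactor (-14.6), L3mbtl2 (-11.6) and E2f6 (-10.5), which encode members of the variant Polycomb complex, and Setdb1, a histone methyltransferase (-10.2). The shares called in the bodies compare with 16.1% of all bodies, and no list was tested as a set. Bisulfite levels do not show whether any of these genes was transcribed.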

How the data were processed

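Whole-genome bisulfite sequencing was done on 4 libraries, 2 of each group. The authors aligned reads to mm10, and BSMAP and Picard are named in the submitters' processing notes; versions and read filters are not given in the sources used here. Per the file headers, the deposited tables hold, at each CpG, counts of methylated reads and of C plus T reads. Per the file headers, the deposited tables also hold an effective C plus T depth, corrected by the authors for C/T variants and treated here as an expected count because it need not be whole, which was rounded and used only as an alternative. Tables were matched to samples by genotype and replicate number in their names.

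The members and lists were chosen with earlier results of these data known. All 10 members are named, and of each list at most 4 called genes, those with the largest promoter difference; L3mbtl2 was added after its values were seen. Some list genes are not reported here. Reads were pooled over CpGs with at least 1 read in all 4 libraries. The promoter was the 1000 bp window, among those within 1000 bp of either gene end, with most listed CpGs, and for 79.4% of 17273 genes with a RefSeq start it lay at that start. Exons and introns were not used here. Features with at least 5 CpGs and 5 reads per library entered a quasi-binomial logistic fit in R 4.3.3, on group alone. limma 3.58.1 moderated the Pearson dispersion, which was not allowed below 1, and p-values of the F test were adjusted by the Benjamini-Hochberg method over all promoters or all bodies. The prior for the dispersion came from features with at least 20 methylated and 20 unmethylated reads. This was chosen after the data were seen, since a prior from all features called 0 of the changed promoters in simulated data. On simulated data with 20032 promoters, where 100 differed by 20 points and 100 by 40 points, 0 and 19 were called, and with 19479 bodies 10 and 40, with 0 false calls. Misses at promoters are therefore common at this depth. Alternatives used edgeR 4.0.16, limma on logit levels with 0.5 reads added, other CpG sets, depths, windows and thresholds, library offsets and leaving out each library. Where 1 library of a group remained, it was assumed to vary like the other group.

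Wilson intervals (95%) came from SciPy 1.17.1, and tables were handled in Python 3.11.15 with pandas 2.3.3, NumPy 2.4.6 and PyArrow 21.0.0. Molecules are not tagged and a fragment can cover several CpGs, so intervals cover counting error only and are too narrow. The replicate numbers did not pair the libraries.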

Additional observations from a re-analysis of the deposited data

How the results depend on the processing

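With 3.35 to 4.04 reads per CpG, promoters of 8 to 46 shared CpGs allow only large differences to be called. Of the member promoters, 0 were called under any alternative that could fit them. None entered the fits with at least 3 or at least 5 reads in all libraries. Nxf2 did not enter the fit on the densest 500 bp. The directions at Tex101, Stk31, Sohlh2 and Nxf2 held in all of their alternatives. That of Dazl held in 15 of 16, with 0 points in the other. Some of these alternatives change only the p-value, so the direction could not turn in them. They are edgeR, limma on logit levels, the library offset, replicate number as a block and the prior from all features. Reversals came without control 1 at Ddx4 (4.55 points, with -19.5 to 4.55 over single libraries left out) and Nanos2 (10.4, with -14.6 to 10.4), in the densest 500 bp at Brdt (1.30), Nanos2 (2.65) and Nanos3 (14.5), around the RefSeq start at Nanos3 (9.32), and with unweighted CpG means at Brdt (5.03). The untested Taf7l promoter (3.16) turned in 4 of 6 alternatives, to -3.81 without iKO 2, -0.72 without control 2, -7.90 around the RefSeq start and -0.50 unweighted. Among bodies they came over all listed CpGs at Taf7l (0.21) and with at least 3 reads at Tex101 (1.12) and Nanos3 (-6.31). Promoter minus body at Ddx4 turned to -1.69 over all listed CpGs. The cause was not tested.

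All promoters called numbered 4. They became 1 over all listed CpGs, 2 without CpGs over 5 times the median depth and 10 in the densest 500 bp. With at least 3 reads they became 2 of the 4594 promoters tested, and with at least 5 reads 2 of 92. They became 0 with edgeR, limma on logit levels, the library offset, the replicate block, the prior from all features (added after seeing the data) and without each library (0 to 0). The fit with at least 5 reads tested 8074 bodies, against 19479 in the main fit. All bodies called in the main fit numbered 3127. They became 865 with at least 5 reads, 0 with limma on logit levels (10318 at an unadjusted p under 0.05), 2073 with the replicate block, 11 with the library offset, 8276 on the adjusted p alone, 57 at 20 points or more, and 930 to 6644 without 1 library.

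Member bodies called were 0, with 2 by edgeR and 0 to 2 without 1 library. Member bodies with an adjusted p under 0.05 were 4 in the main fit. They became 6 with edgeR, 2 at 3 reads or more and 0 at 5 reads or more. They were 0 with limma on logit levels and 1 with the replicate block (Ddx4, adjusted p = 0.027). With the library offset, which takes out the shift over all bodies, they were 0. The numbers do not pair the libraries: the replicate 1 minus replicate 2 differences of the 2 groups correlated at -0.03 over promoters and -0.08 over bodies. No alternative to the 500 bp bins was run.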
